A study of Caenorhabditis elegans with 12 samples.

Results

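The nlp genes of Caenorhabditis elegans encode neuropeptide-like proteins, and their RNA was compared between wild-type hermaphrodites and fog-2 mutant females. The genes were chosen by name alone: every row whose gene name begins with nlp- in both deposited gene tables was taken, which gave 44 genes of 39665 in all. RNA came from whole XX adults in both genotypes, grown at 20 °C on NGM agar with OP50 bacteria. The wild-type animals were hermaphrodites of strain N2 (the D samples carry the strain label N3), and the mutants were females of strain JK574, homozygous for fog-2(q71). FOG-2 is an F-box protein needed for spermatogenesis in the hermaphrodite germline, so the mutants make no sperm of their own; the labels give neither the age of the adults in days nor whether they had mated. For each genotype 3 RNA samples were each made into 1 oligo-dT library, in which reverse transcription starts at the poly(A) tail, and 1 random hexamer library, 12 libraries in all. The deposited tables give, for each priming, 1 pooled FPKM value per genotype (fragments adjusted for gene model length and library size), so no spread between the 3 samples can be shown and the read depth is unknown.

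Neuropeptide-like genes encode secreted precursor proteins that convertases cut at pairs of basic residues. A carboxypeptidase then trims the basic residues, many peptides are amidated at their end, and the peptides are released from dense-core vesicles onto G protein-coupled receptors. In this worm the name nlp covers peptide genes outside the FMRFamide-like (flp) and insulin-like (ins) families, so its members share no single sequence. Some of them, named YGGW-type here after a tryptophan-containing repeat, include antimicrobial peptides that the epidermis makes in response to fungal infection. Because whole animals were used, fewer cells that make a peptide and less RNA per cell cannot be told apart.

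As a check of the labels, fog-2 itself was at 64.2 FPKM in N2 and 14.4 FPKM in fog-2 females with oligo-dT, with a q-value of 0.00636 in the authors' deposited table. With hexamers it was at 34.9 and 7.08 FPKM, with a q-value of 0.0103 in the authors' deposited table. The authors' test covered 38 of the 44 nlp genes with oligo-dT and 33 with hexamers. With oligo-dT, nlp-8, nlp-18, nlp-21 and nlp-38 lay in loci that the authors marked as holding too many fragments and are printed there at a placeholder of 0, while nlp-22 and nlp-32 were at under 0.4 FPKM and were not tested. With hexamers the 11 genes not tested were nlp-2, nlp-4, nlp-5, nlp-19, nlp-22, nlp-23, nlp-32, nlp-35, nlp-39, nlp-42 and nlp-46, at no more than 6.50 FPKM in N2 and 4.45 FPKM in fog-2. Gene models of the members held little beyond the coding span: of 31 with a locus of their own and a coding span under the same symbol in WBcel235, 29 were exactly as long as that span. The genes nlp-10 and nlp-42 also have a locus of their own but no coding span under the same symbol. The remaining 11 members sit in loci that the tables share among several genes, from 3 genes for nlp-47 to 271 for nlp-21.

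No nlp gene passed the authors' test in either table. With oligo-dT, 0 of 38 tested members reached a q-value of 0.05 or less by Cuffdiff, the authors' tool, in the authors' deposited table, where 1.43% of all tested genes did (1.1% lower in fog-2 and 0.335% higher). At an unadjusted p under 0.05, 2 members were lower in fog-2 and 0 were higher in the authors' deposited table, where 8.45% of all tested genes had such a p, 6.25% lower and 2.2% higher. With hexamers, 0 of 33 tested members reached such a q-value by Cuffdiff in the authors' deposited table, against 0.822% of all tested genes (0.284% lower and 0.538% higher). Unadjusted p-values under 0.05 were found for 1 lower and 1 higher member in the authors' deposited table, where 8.97% of all tested genes had such a p, 2.6% lower and 6.37% higher. The smallest q-values of any member in the authors' deposited table were 0.170 with oligo-dT and 0.430 with hexamers.

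The folds of many members were estimated closely enough to bound them. A standard error was taken for each log2 fold (fog-2 over N2) as its size divided by the normal quantile of the authors' p-value, and a 95% interval was built from it. Such an interval spans 0 just when the authors' unadjusted p is 0.05 or more, so spanning 0 restates that p and is no separate result. With oligo-dT the median of this implied error was 0.29 on the log2 scale, and for 26 of 38 members the interval lay within 2-fold in either direction. With hexamers the median was 0.45, and 9 of 33 intervals lay within 2-fold. A large hexamer fold of a low member therefore has a wide interval, as the plot of folds shows.

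**Figure D1:**
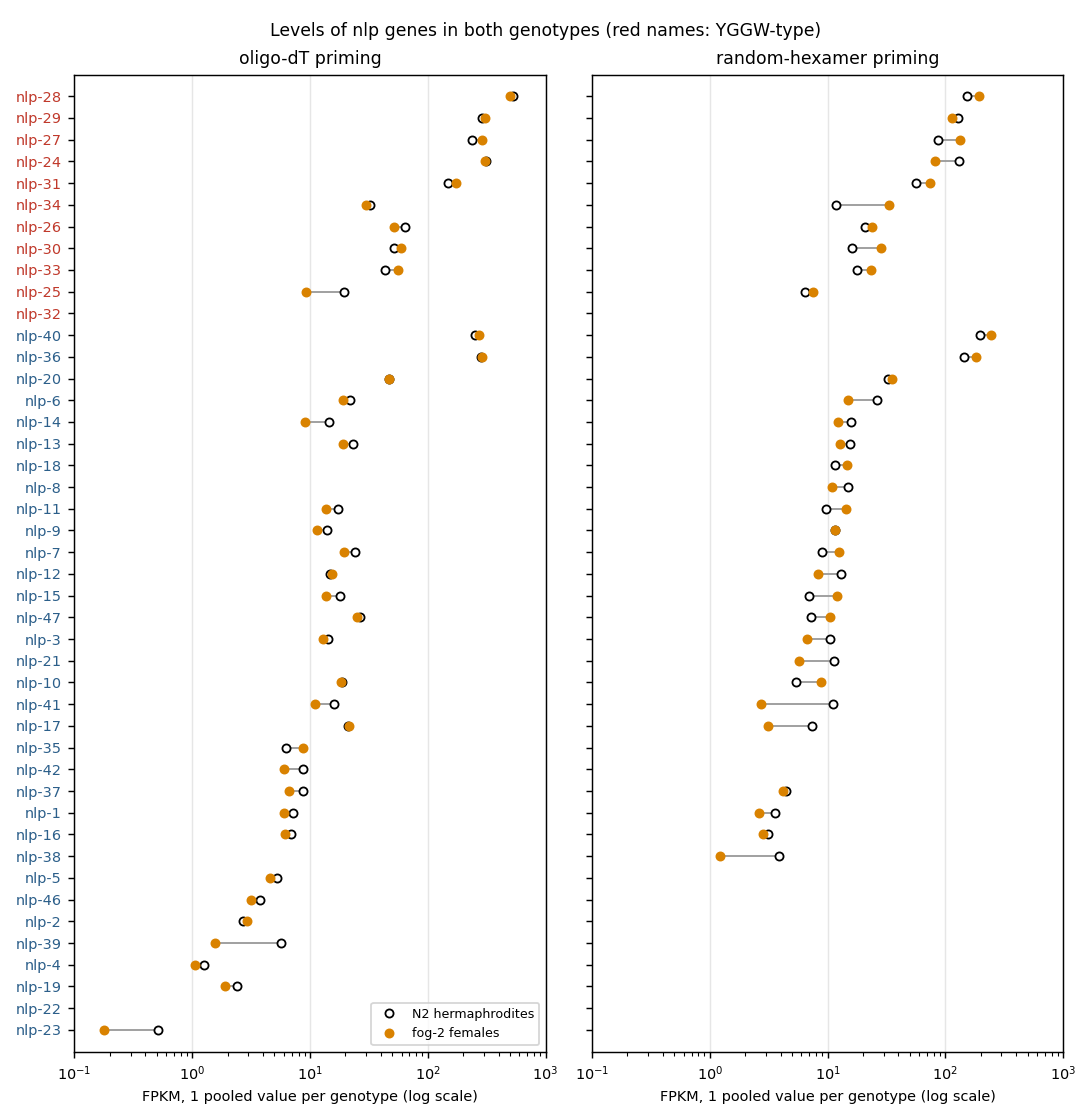
FPKM of each tested nlp gene on a log axis, with 1 pooled value for N2 hermaphrodites (open) and 1 for fog-2 females (filled), for oligo-dT on the left and random hexamers on the right. YGGW-type genes are named in red at the top; nlp-28, at 533 and 501 FPKM with oligo-dT, is the highest member, and the longest lines between genotypes belong to low members such as nlp-39 (5.70 and 1.55 FPKM).

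The highest nlp RNAs were mostly YGGW-type genes, and the folds of these abundant genes were small and tightly bounded with oligo-dT. The 10 highest by mean FPKM were nlp-28, nlp-24, nlp-29, nlp-36, nlp-40, nlp-27, nlp-31, nlp-26, nlp-30 and nlp-33, and 8 of these 10 are YGGW-type. With oligo-dT the 10 tested YGGW-type genes made up 66.1% of the summed FPKM of all tested members in N2 and 67.3% in fog-2, and with hexamers 52.1% and 52.8%. In N2, 7 members ranked in the top 10% of all tested genes by FPKM with oligo-dT, and the median member was at the 67.0 percentile. With hexamers 3 members did, and the median member was at the 32.2 percentile. Each rank was taken among the genes tested with that priming, and these sets are unlike. With oligo-dT 16396 genes were tested, with a median of 4.23 FPKM in N2, and with hexamers 9855, with a median of 26.2 FPKM. The percentiles of the 2 primings therefore cannot be compared.

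Among YGGW-type genes, nlp-28 was at 533 FPKM in N2 and 501 FPKM in fog-2 with oligo-dT (log2 fold -0.09, 95% interval -0.42 to 0.24). The gene nlp-29, which fungal infection and wounding induce in the epidermis, was at 290 and 309 FPKM, a log2 fold of 0.09 with an interval of -0.27 to 0.45. The antifungal peptide gene nlp-31 was at 147 and 174 FPKM (0.24, interval -0.14 to 0.63). For each of these 3 genes the interval spans 0 and excludes a 2-fold difference in either direction. The opioid-like peptide gene nlp-24 was at 313 and 304 FPKM (-0.05, interval -0.39 to 0.29). The gene nlp-27 was at 235.4 and 289 FPKM (0.30, interval -0.07 to 0.66) and nlp-26 at 63.9 and 51.3 FPKM (-0.32, interval -0.77 to 0.13). Both of these intervals span 0. The lower members nlp-30 (51.5 and 59.4 FPKM), nlp-33 (43.0 and 55.6 FPKM) and nlp-34 (32.6 and 30.03 FPKM) had log2 folds of 0.20, 0.37 and -0.12.

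The exception among YGGW-type genes was nlp-25. With oligo-dT it was at 19.4 FPKM in N2 and 9.29 FPKM in fog-2 (log2 fold -1.06, interval -1.78 to -0.34). Its unadjusted p was 0.0041 and its q-value 0.170 in the authors' deposited table, so it missed the threshold over all genes. Its hexamer values were 6.42 and 7.57 FPKM, a log2 fold of 0.24 with an interval of -1.35 to 1.83. The next nlp gene along chromosome V is nlp-26, which starts 5185 bases beyond the end of nlp-25 in the tables. Its log2 folds were -0.32 with oligo-dT and 0.19 with hexamers. The YGGW-type gene nlp-32 was at 0.281 FPKM with oligo-dT in N2, its fog-2 value was listed as 0, and both of its hexamer values were listed as 0.

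A tandem array on chromosome V held 6 of the YGGW-type genes in the order nlp-34, nlp-31, nlp-30, nlp-29, nlp-28 and nlp-27. In the tables it runs from position 3978888 to 3989698, 10811 bases, with no row of another gene between, on a genome build that the sources used here do not give. In the WBcel235 annotation nlp-34 is on the minus strand and the other 5 on the plus strand. Levels in the array were uneven: nlp-28 was at 533 FPKM in N2 with oligo-dT, while nlp-34 and nlp-30 were at 32.6 and 51.5 FPKM. From highest to lowest, the order with oligo-dT was nlp-28, nlp-29, nlp-27, nlp-31, nlp-30 and nlp-34 in both genotypes. The array as a whole summed to 1291 FPKM in N2 and 1362 FPKM in fog-2 with oligo-dT, and to 451 and 576 FPKM with hexamers. With hexamers nlp-27 was at 86.5 and 134 FPKM, a log2 fold of 0.63 with an interval of 0.04 to 1.23, an unadjusted p of 0.038 and a q-value of 0.521 in the authors' deposited table. At the other end of the array nlp-34 was at 11.9 and 33.1 FPKM, the largest hexamer fold of any member with at least 5 FPKM (1.48, interval -0.06 to 3.02). The genes nlp-30, at 16.2 and 28.5 FPKM, and nlp-28, at 153 and 192 FPKM, had log2 folds of 0.82 and 0.32. The gene nlp-31 was at 56.1 and 74.4 FPKM with hexamers (0.41, interval -0.27 to 1.09). In contrast nlp-29 was lower in fog-2 with hexamers, at 127 and 115 FPKM (-0.15, interval -0.70 to 0.41). The median log2 fold over all genes tested with hexamers was 0.10.

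**Figure D2:**
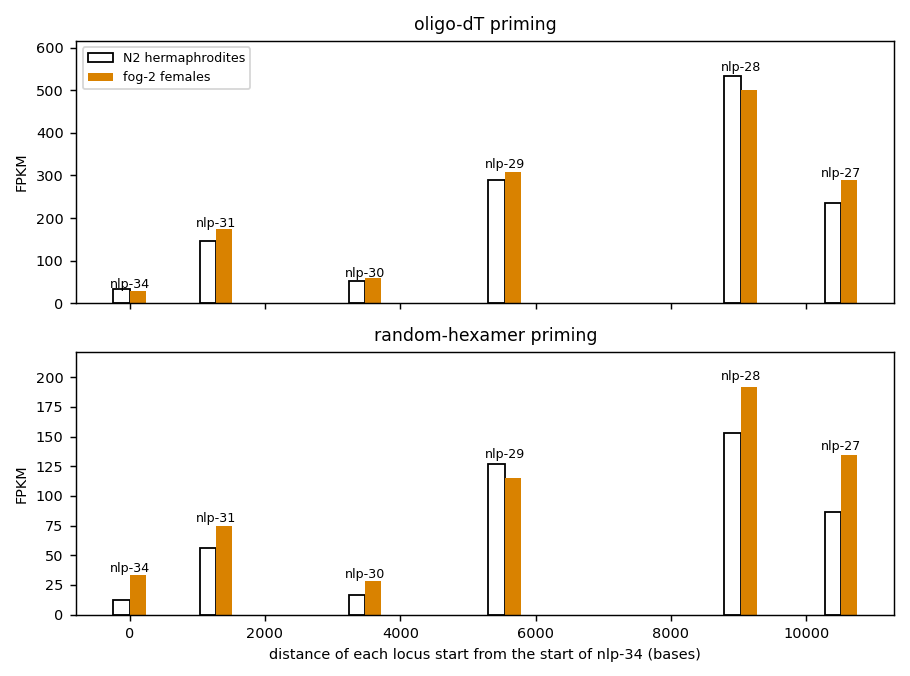
FPKM of the 6 YGGW-type genes of the chromosome V array, as bars for N2 (open) and fog-2 (filled), against the distance of each locus start from that of nlp-34 in bases; oligo-dT above and random hexamers below. With oligo-dT the paired bars are close in height for every gene, and with hexamers those of nlp-34 (11.9 and 33.1 FPKM) and nlp-30 (16.2 and 28.5 FPKM) are farthest apart in ratio.

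Outside the array and the YGGW-type, the most abundant members were nlp-36 and nlp-40. The intestinal peptide gene nlp-40, whose peptide acts on the receptor AEX-2 in the defecation rhythm, was at 254 FPKM in N2 and 271 FPKM in fog-2 with oligo-dT. Its log2 fold was 0.09 with an interval of -0.21 to 0.39, the narrowest of any member in that table. With hexamers nlp-40 was at 196 and 246 FPKM (0.33, interval -0.03 to 0.69). The other gene, nlp-36, was at 284 and 288 FPKM with oligo-dT (0.02, interval -0.32 to 0.36) and at 145 and 183 FPKM with hexamers (0.34, interval -0.13 to 0.81). Both hexamer folds stand beside a median of 0.10 over all tested genes in that table.

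Outside the YGGW-type most oligo-dT folds were below 0, and none passed the test. The median FPKM of these members in N2 was 14.4, against 4.23 over all tested genes. Of 28 tested members outside the YGGW-type, 22 had a lower FPKM in fog-2 and the median log2 fold was -0.26. Of all 16396 tested genes 53.9% were below 0, with a median of -0.03. The YGGW-type genes split into 5 below 0 and 5 above, with a median of 0.02, so the 38 tested members together had 27 below 0 and a median of -0.17. Among genes with at least 5 FPKM in 1 genotype, 18 of 23 members outside the YGGW-type were below 0, with a median of -0.19, against 35.3% of 8021 genes and a median of 0.06. These counts describe the list and carry no test.

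The lowest fold of a member with at least 5 FPKM in 1 genotype was that of nlp-39, at 5.70 FPKM in N2 and 1.55 FPKM in fog-2 with oligo-dT. This gene reached the minimum through N2 alone. Its fold was -1.88 with an interval of -3.33 to -0.42, an unadjusted p of 0.0113 and a q-value of 0.303 in the authors' deposited table. It was not tested with hexamers, with values of 0.840 FPKM in N2 and a listed 0 in the mutant. The gene nlp-41 had oligo-dT values of 16.01 and 11.02 FPKM (-0.54, interval -1.35 to 0.27) and hexamer values of 11.2 and 2.73 FPKM (-2.04, interval -5.59 to 1.51), the lowest hexamer fold by the same rule. That hexamer interval covers both a large difference and none. The largest oligo-dT fold among members with at least 5 FPKM was that of nlp-35, at 6.24 and 8.79 FPKM (0.50, interval -0.48 to 1.47).

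Both peptide genes studied in egg laying had intervals that span 0 with each priming. The gene nlp-3, which promotes egg laying from the HSN neurons, was at 14.2 FPKM in N2 and 12.9 FPKM in fog-2 (-0.14, interval -0.81 to 0.53), and at 10.4 and 6.73 FPKM with hexamers (-0.63, interval -1.89 to 0.63). The gene nlp-7, whose peptides inhibit egg laying, was at 24.05 and 19.4 FPKM with oligo-dT (-0.31, interval -0.82 to 0.20) and at 8.92 and 12.5 FPKM with hexamers (0.48, interval -0.40 to 1.37).

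The orcokinin-type genes nlp-3, nlp-8, nlp-14 and nlp-15 encode peptides related to those of arthropods. The sleep-promoting gene nlp-14 was at 14.6 and 9.16 FPKM with oligo-dT (-0.67, interval -2.26 to 0.92) and at 15.9 and 12.2 FPKM with hexamers (-0.39, interval -1.85 to 1.08). Its locus in the tables is shared by 57 genes, and its implied error, 0.81 with oligo-dT, is among the widest. The gene nlp-8, which acts in stress-induced sleep and lies in a locus shared by 144 genes, was tested only with hexamers, at 14.98 and 10.9 FPKM (-0.45, interval -1.61 to 0.71). The gene nlp-15 was at 18.2 and 13.7 FPKM with oligo-dT (-0.41, interval -0.92 to 0.09) and at 6.91 and 12.1 FPKM with hexamers (0.81, interval -0.07 to 1.68). Of the RPamide-type genes nlp-2, nlp-22 and nlp-23, which lie in 1 shared locus of 5 genes on chromosome X, only nlp-2 exceeded 1 FPKM. It was at 2.68 and 2.90 FPKM with oligo-dT, and nlp-22, a sleep peptide gene of the RIA neurons, was at 0.387 and 0.120 FPKM and not tested.

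Genes for peptides with relatives across animals had intervals that span 0 with each priming in which they were tested, and several of these intervals are wide. The cholecystokinin-like gene nlp-12, expressed in the DVA neuron, was at 14.8 and 15.3 FPKM with oligo-dT (0.05, interval -0.65 to 0.76) and at 12.9 and 8.25 FPKM with hexamers (-0.65, interval -1.99 to 0.69). The gene nlp-47, related to gonadotropin-releasing and adipokinetic hormones, was at 26.8 and 25.03 FPKM with oligo-dT (-0.10, interval -0.63 to 0.44) and at 7.20 and 10.5 FPKM with hexamers (0.54, interval -0.79 to 1.87). The pigment-dispersing-factor gene nlp-37 lies in a locus shared by 87 genes with both primings. It had oligo-dT values of 8.70 and 6.61 FPKM, where its interval, -5.72 to 4.93, sets no bound. Its hexamer values were 4.48 and 4.18 FPKM (-0.10, interval -0.56 to 0.36). The implied error of that hexamer fold was 0.23, against 0.59 for nlp-1, which has a locus of its own and a similar level, so its narrow interval may not be a sound bound. The myoinhibitory peptide gene nlp-38, in a locus shared by 269 genes, had only hexamer values, 3.87 and 1.21 FPKM (-1.67, interval -3.51 to 0.16). Outside this group, the AWC neuron peptide gene nlp-1 had oligo-dT values of 7.22 and 6.01 FPKM (-0.27, interval -0.86 to 0.33) and hexamer values of 3.56 and 2.60 FPKM (-0.45, interval -1.61 to 0.72).

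Of the 14 other members tested with oligo-dT, 12 were nlp-4, nlp-5, nlp-6, nlp-9, nlp-10, nlp-11, nlp-13, nlp-16, nlp-17, nlp-19, nlp-20 and nlp-42. With nlp-23 and nlp-46 they ranged from 0.515 FPKM (nlp-23) to 47.2 FPKM (nlp-20) in N2. Every one had an interval that spans 0. The abundant nlp-20 was at 47.2 and 46.5 FPKM with oligo-dT and at 32.8 and 35.5 FPKM with hexamers. The gene nlp-18, which has hexamer values alone and a locus shared by 179 genes, was at 11.5 and 14.5 FPKM (0.33, interval -0.28 to 0.95). The gene nlp-13 was at 23.4 and 18.9 FPKM with oligo-dT and at 15.5 and 12.7 FPKM with hexamers, log2 folds of -0.31 and -0.29. With hexamers nlp-17 was at 7.32 and 3.11 FPKM (-1.23, interval -2.78 to 0.31), nlp-21 at 11.4 and 5.70 FPKM (-0.998, interval -2.81 to 0.81), nlp-6 at 26.1 and 15.1 FPKM (-0.79, interval -1.76 to 0.18) and nlp-10 at 5.42 and 8.83 FPKM (0.70, interval -0.31 to 1.72). With oligo-dT nlp-17 was at 20.97 and 21.3 FPKM.

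**Figure D3:**
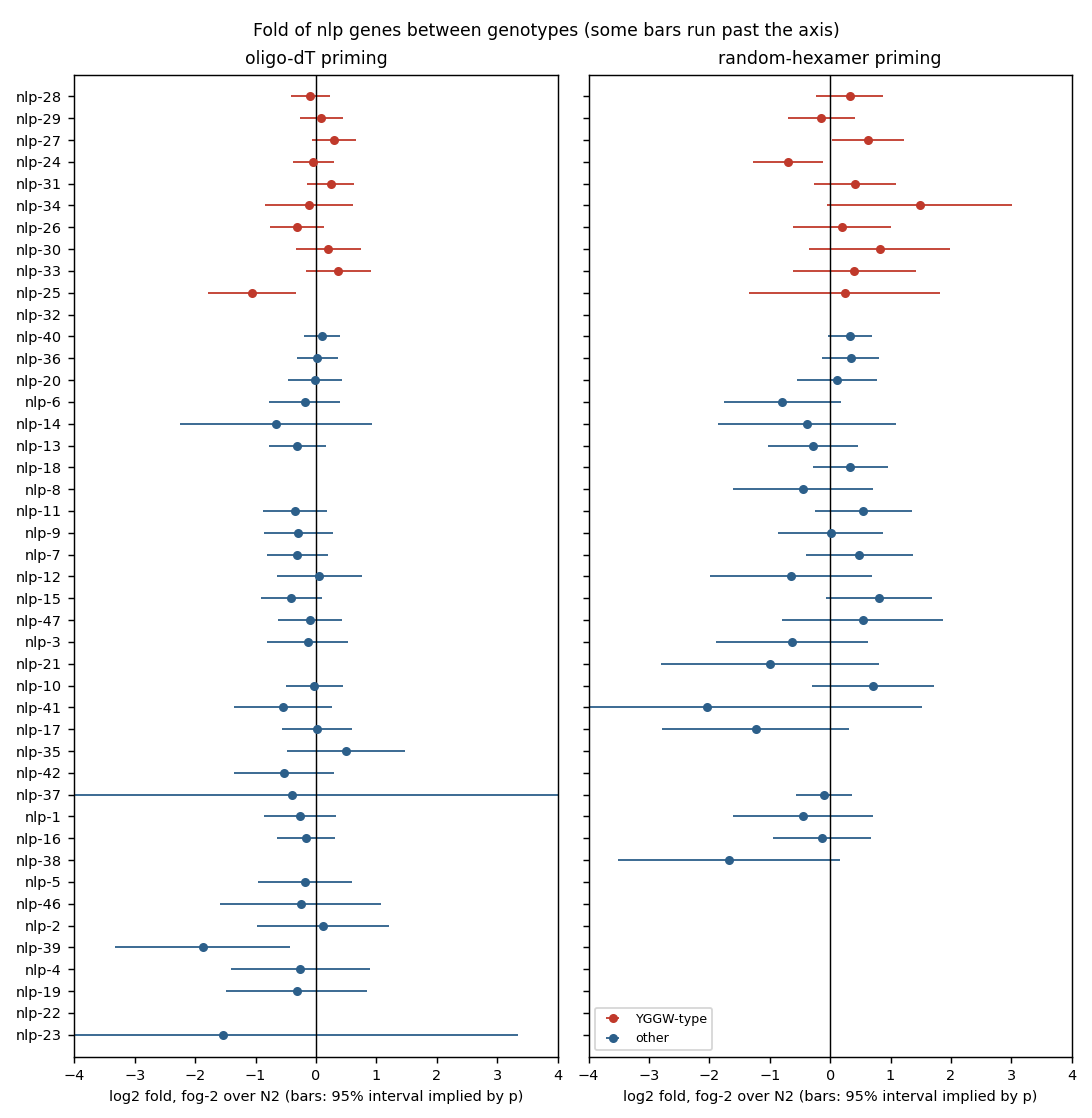
The log2 fold (fog-2 over N2) of each tested nlp gene with the 95% interval implied by the authors' p-value, oligo-dT left and random hexamers right, YGGW-type genes in red and the others in blue. Intervals are narrow for abundant genes such as nlp-40 (-0.21 to 0.39 with oligo-dT), and with oligo-dT the intervals of nlp-25 and nlp-39 alone lie wholly on 1 side of 0.

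With random hexamers the folds of the members lay on both sides of 0. Of 33 tested members 15 were below 0 and the median log2 fold was 0.12, beside 32.9% below 0 and a median of 0.10 over all 9855 tested genes. The 10 tested YGGW-type genes had 2 below 0 and a median of 0.36, and the 23 others had 13 below 0 and a median of -0.13. The lower member at an unadjusted p under 0.05 was nlp-24, at 131 FPKM in N2 and 81.3 FPKM in fog-2 (log2 fold -0.69, interval -1.27 to -0.11), with a p of 0.0195 and a q-value of 0.430 in the authors' deposited table. Its oligo-dT values, 313 and 304 FPKM, differed far less.

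Each RNA sample was primed both ways, which addresses whether fog-2 activity affects polyadenylation, so the oligo-dT fold was set against the hexamer fold for the 29 members tested with both. The difference was taken relative to the median of 8593 genes (-0.06), with the implied errors combined as if independent, although both primings used the same RNA. After Benjamini-Hochberg adjustment over all 8593 genes, 0 members and 0% of all genes passed this normal test. At an unadjusted p under 0.05 there were 2 members, where 1.61% of all genes passed. One was nlp-15, with log2 folds of -0.41 (oligo-dT) and 0.81 (hexamers), and a centred difference of -1.16 ± 0.51 (implied SE). The other was nlp-24, with folds of -0.05 and -0.69 and a centred difference of 0.70 ± 0.34 (implied SE). The wide difference for nlp-34, folds of -0.12 and 1.48, had an implied SE of 0.87. A share of 1.61% is smaller than a threshold of 0.05 gives when no gene differs. The combined errors were thus too wide, and the lack of calls says little about priming differences.

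**Figure D4:**
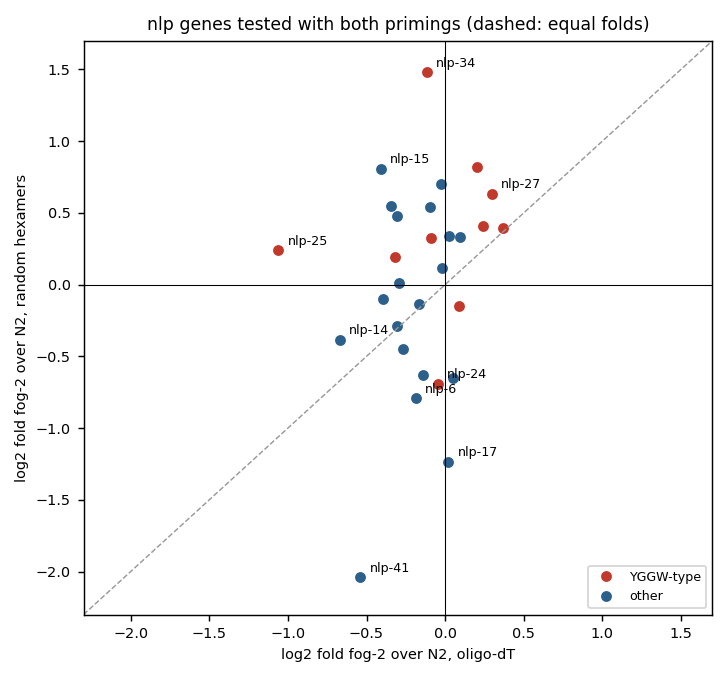
The log2 fold (fog-2 over N2) with oligo-dT on the horizontal axis against that with random hexamers on the vertical axis for the 29 nlp genes tested with both, YGGW-type in red and the others in blue. Hexamer folds spread from -2.04 (nlp-41) to 1.48 (nlp-34), a wider range than the oligo-dT folds of the same genes, which run from -1.06 (nlp-25) to 0.37 (nlp-33).

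Levels of the members also stood differently in the 2 tables, which the authors normalised separately. In N2 the oligo-dT FPKM over the hexamer FPKM had a median of 2.29 across the 29 members, from 0.842 to 3.72, against a median of 1.503 across 8643 genes tested with both. The 10 YGGW-type genes lay between 2.29 and 3.49, all above 1, and the 19 others had a median of 1.77.

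Genes that make and release the peptides were described as lists beside the members. The convertase EGL-3, its chaperone SBT-1 and the carboxypeptidase EGL-21 process most neuropeptide precursors, and the RNAs of these 3 genes had folds below 0 in both tables without passing the test. With oligo-dT egl-3 was at 23.7 FPKM in N2 and 17.7 FPKM in fog-2 (-0.43, interval -0.77 to -0.09), egl-21 at 48.0 and 36.4 FPKM (-0.40, interval -0.70 to -0.09) and sbt-1 at 60.6 and 46.6 FPKM (-0.38, interval -0.72 to -0.04). Their unadjusted p-values in the authors' deposited table were 0.0141, 0.0104 and 0.0297, and their q-values 0.341, 0.286 and 0.472. With hexamers egl-3 was at 47.9 and 34.9 FPKM (-0.46), egl-21 at 49.004 and 37.5 FPKM (-0.38) and sbt-1 at 49.01 and 38.7 FPKM (-0.34), with unadjusted p-values of 0.0103, 0.0344 and 0.124 in the authors' deposited table. The list of 11 processing genes held 0 calls with either priming in the authors' deposited table. With oligo-dT an unadjusted p under 0.05 was reached by 3 of 10 tested, each of them lower, with a median log2 fold of -0.12. With hexamers 2 of 11 were lower at such a p and 0 higher, with a median of -0.38. Of all tested genes 6.25% were lower at such a p with oligo-dT and 2.6% with hexamers, and their median folds were -0.03 and 0.10. The most abundant member, the convertase gene bli-4, was at 81.0 and 78.1 FPKM with oligo-dT.

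Among dense-core vesicle genes the median was -0.15 for the 8 tested with oligo-dT, with 0 at an unadjusted p under 0.05, and 0.12 over 6 tested with hexamers, where tbc-8, at 1.38 and 2.34 FPKM, was the single gene at such a p in the authors' deposited table (p = 0.0465). The most abundant, unc-108, which encodes RAB-2, and the protein kinase C gene pkc-1 had log2 folds of 0.13 and -0.11 with oligo-dT. Receptors of nlp peptides were low RNAs whose median log2 fold was -0.14 for the 9 tested with oligo-dT and 0 calls, and 1 receptor, the pigment-dispersing-factor receptor gene pdfr-1 (3.995 and 4.79 FPKM), was tested with hexamers. The receptor gene npr-11, whose product responds to NLP-1, had oligo-dT values of 1.46 and 0.636 FPKM, with an unadjusted p of 0.0032 and a q-value of 0.146 in the authors' deposited table. The myoinhibitory peptide receptor gene sprr-1 was at 0.747 and 0.402 FPKM (p = 0.0448 in the authors' deposited table), and the 2 most abundant receptors, pdfr-1 and npr-17, had log2 folds of 0.15 and 0.14.

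Pan-neuronal marker genes were detected, which bears on the neuronal members. Their median log2 fold was -0.19 for the 9 tested with oligo-dT and -0.13 for the 8 tested with hexamers, and 0 were called. Their summed FPKM was 270 in N2 and 296 in fog-2 with oligo-dT, mostly from the synaptobrevin gene snb-1 (224 and 255 FPKM), and 377 and 399 with hexamers. With oligo-dT 8 of the 9 were below 0, where 53.9% of all tested genes were. The gene rgef-1, at 0.572 and 0.204 FPKM, had an unadjusted p of 0.00305 and a q-value of 0.141 in the authors' deposited table. With hexamers rab-3, at 4.93 and 2.24 FPKM, had a p of 0.0368 in the authors' deposited table. Of all tested genes 6.25% were lower at an unadjusted p under 0.05 with oligo-dT and 2.6% with hexamers. Calls were 1.43% and 0.822% of all tested genes. No tested marker of this list was at 0 (unc-64 and unc-119 were untested with oligo-dT), and its part in the folds of the neuronal nlp genes was not tested.

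The caenacin (cnc) genes, relatives of the YGGW-type peptides in the epidermis, had 0 calls, a median log2 fold of 0.16 over 10 tested with oligo-dT and 0.33 over 5 with hexamers, and 0 at an unadjusted p under 0.05. Their most abundant members were cnc-4, at 102 and 143 FPKM in a locus shared by 139 genes (interval -5.82 to 6.78), and cnc-8, at 86.7 and 86.6 FPKM with oligo-dT. Signalling genes upstream of epidermal peptides had 0 calls and medians of -0.10 over 15 tested (oligo-dT) and -0.04 over 13 (hexamers). Of these nipi-3, needed for nlp-29 induction, was at 30.2 and 30.1 FPKM with oligo-dT and rack-1 at 3593 and 3325 FPKM, while the GATA factor gene elt-3 was at 19.8 and 13.9 FPKM (p = 0.0252 and q = 0.450 in the authors' deposited table). With hexamers tpa-1, a protein kinase C gene, was at 13.8 and 10.1 FPKM (p = 0.0467 in the authors' deposited table). Of all tested genes 1.43% were called with oligo-dT and 0.822% with hexamers. An unadjusted p under 0.05 was found for 8.45% and 8.97% of all tested genes.

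Of the epidermis markers 1 passed the test. The hedgehog-related gene wrt-1 fell from 4.22 to 0.9004 FPKM with oligo-dT, with a q-value of 0.00636 in the authors' deposited table. It was the single call among the 12 tested, where 1.1% of all tested genes were called lower. At unadjusted p-values of 0.00465 and 0.00285 in the authors' deposited table, dpy-7 was at 2.67 and 1.27 FPKM and wrt-2 at 0.934 and 0.340 FPKM. With elt-3, given above and also on this list, 4 of the 12 were lower at an unadjusted p under 0.05, against 6.25% of all tested genes. The adult collagen gene col-19 was at 1199 and 1149 FPKM (log2 fold -0.06, interval -0.35 to 0.23) and nhr-23 at 32.95 and 32.7 FPKM. The 3 markers higher in fog-2 with oligo-dT were rol-6 (0.317 and 0.453 FPKM), col-12 (0.434 and 0.505 FPKM) and elt-1 (11.3 and 12.6 FPKM). Like rol-6 and col-12, bli-1 and bli-2 were under 1 FPKM in both genotypes, so much of this list lies near the floor. The list had a median of -0.52 with oligo-dT, where its median level in N2 was only 2.39 FPKM, and -0.04 over 5 tested with hexamers. Its summed FPKM was 1274 and 1214 with oligo-dT, mostly from col-19. No tested marker was at 0, and the part of this list in the levels of YGGW-type genes was not tested. Intestine markers, set beside nlp-40, had 0 calls and medians of -0.15 over 5 tested (oligo-dT) and 0.17 over 6 (hexamers). Of these act-5 was at 430 and 472 FPKM with oligo-dT and at 230 and 297 FPKM with hexamers (p = 0.0305 in the authors' deposited table), and ifb-2 at 64.7 and 58.2 FPKM with oligo-dT.

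**Figure D5:**
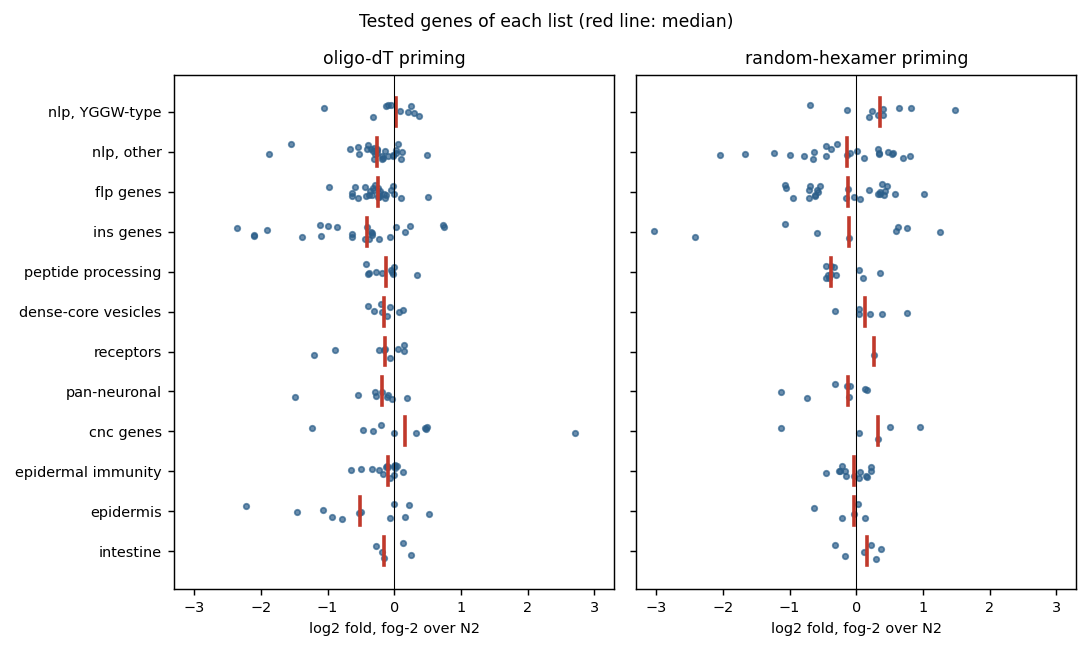
The log2 fold (fog-2 over N2) of each tested gene, 1 point a gene and a red line at the median, for the nlp genes and the lists set beside them, oligo-dT left and random hexamers right. With oligo-dT the medians of nlp genes outside the YGGW-type (-0.26) and of flp genes (-0.25) lie below that of YGGW-type genes (0.02); a gene listed at 0 in 1 genotype is counted in the median and not drawn.

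The other peptide families also had oligo-dT medians below 0. Of 27 tested flp genes 25 were below 0, with a median of -0.25, and of 25 tested ins genes 19 were below 0, with a median of -0.40. Neither family held a call in the authors' deposited table. Of all tested genes 53.9% were below 0, with a median of -0.03. The ins genes were low RNAs, with a median of 2.05 FPKM in N2 and a median implied error of 0.68. With hexamers the medians were -0.12 over 25 flp genes and -0.11 over 9 ins genes, again with 0 calls in the authors' deposited table. There 32.9% of all tested genes were below 0, with a median of 0.10. The current RefSeq gene table for WBcel235 gives an nlp name to 37 further genes that the deposited tables hold under sequence names. Of these, 33 were tested with oligo-dT, 26 of them below 0 with a median log2 fold of -0.25, and 15 with hexamers, 8 of them below 0 with a median of -0.18. Both sets held 0 calls in the authors' deposited table. The most abundant with oligo-dT was nlp-49, which encodes a ligand of the receptor SEB-3, at 68.5 and 48.3 FPKM (-0.50, interval -1.01 to 0.01), and it was at 36.9 and 37.6 FPKM with hexamers. At an unadjusted p under 0.05 in the authors' deposited table, nlp-70 was at 4.44 and 1.72 FPKM with oligo-dT (p = 0.0415) and nlp-56 at 12.3 and 21.5 FPKM with hexamers (p = 0.0492).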

How the data were processed

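Per the labels' protocols, Trizol was used for extraction of whole adults and an Illumina TotalScript kit for the libraries; the 12 libraries were put in 4 groups of 3 by their titles. One hexamer library is described in its label as oligo-dT primed, and the title was followed. Cuffdiff, TopHat and Cufflinks 2.1.1 are named in the submitters' processing notes, without a genome build or annotation. The authors deposited, per the file headers, 1 FPKM value per genotype and priming with a p-value and a q-value per gene. Calls are the authors' q at or under 0.05 among genes with status OK. From the FPKM values, log2 folds (fog-2 over N2, no pseudocount) and their medians were computed (Python 3.11.15, pandas 2.3.3, SciPy 1.17.1); the implied standard errors rest on a normal form of the authors' p-values. Starts in the tables count from 0 and are printed counted from 1. A row that names no gene, 1 per table, was dropped.

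Genes and lists were chosen with earlier results of these data known. Values are given for members at an unadjusted p under 0.05, the 10 of largest mean FPKM with oligo-dT, the 4 largest and 4 lowest folds per table with at least 5 FPKM in 1 group, and the members of the role groups; for lists that are not members, chiefly those at such a p and the most abundant. The values are pooled, so p-values measure only the spread that the authors' test took between samples of a group.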

Additional observations from a re-analysis of the deposited data

How the results depend on the processing

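No paired analysis was possible because the tables hold 1 pooled value per group, and leaving out a replicate was not run for the same reason. The count of 0 called members held in each table at q at or under 0.01, without shared loci, and with q-values recomputed over genes of at least 1 FPKM (smallest member q 0.135 with oligo-dT and 0.430 with hexamers); at an unadjusted p under 0.05 2 members passed in each table. The oligo-dT median of members ranged from -0.17 to -0.14 over pseudocounts of 0.1 and 1, FPKM minimums of 1 and 5 (the latter added after seeing the data), centring on all tested genes, and leaving out shared loci. The hexamer median of 0.12 was 0.0134 when centred on all tested genes, 0.24 without shared loci and 0.24 with an FPKM minimum of 5; the cause was not tested. Centring turned the sign of 3 small folds, none of them called: nlp-10 to 0.00430 and nlp-20 to 0.00756 with oligo-dT, and nlp-9 to -0.0916 with hexamers. The priming test gave 0 members without centring, and 0 with errors multiplied by 0.645. With that factor the smallest adjusted p of a member in this normal test was 0.0610, and 58 of 8593 genes passed. The factor was set from these same genes, so that their median absolute test statistic equalled that of genes that do not differ. The counts with it are therefore no independent check. With these smaller errors 7 of 29 members and 781 of 8593 genes had an unadjusted p under 0.05 in this normal test. The authors left 11 members untested in the hexamer table and 6 in the oligo-dT table, and the depth behind both is unknown.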
